A study of Mus musculus with 22 samples.

Results

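Cluster 5 of the deposited boundary list held 719 domain boundaries, 11.3% of a list whose other 4 clusters hold 5657, mapped by in situ Hi-C in G1E-ER4 cells, a mouse erythroblast line derived from GATA1-null G1E cells that carries GATA1 fused to the estrogen receptor, as the cells left mitosis with or without the architectural protein CTCF. The members were chosen by the deposited label 5 of 5 labels, and that label was itself made from the boundary strengths described here, so those strengths are given as a description and support nothing about the members. In their methods, the authors held the cluster to be mostly spurious boundaries and did not analyse it further. Both CTCF alleles of these cells carried a C-terminal AID-mCherry tag, and all groups, controls included, expressed the plant receptor OsTiR, so that auxin degraded CTCF. Cells were arrested with nocodazole, with auxin added late in the arrest to the +auxin groups, released for 0, 30, 60 or 120 min, and sorted as prometaphase, ana/telophase, early-G1 or mid-G1 cells, respectively. Ana/telophase cells carried a second form of the receptor construct with a mitotic degron. The labels gave 2 replicates for each of the first 3 stages and 3 for mid-G1, with and without auxin, but the deposited tables hold 1 value per boundary for each of the 8 maps of merged replicates. No difference between treatments or stages therefore has a replicate check, and the contacts behind a single value are not in the tables used here, so its precision is unknown. The error given with a median is the SD among 20 chromosomes, each with its own median, and shares carry a 95% Wilson interval that covers counting error only.

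A boundary is a position across which the chromatin fibre makes few contacts, and it separates neighbouring contact domains. In interphase many boundaries lie where CTCF, bound to its motif, stops the cohesin ring as it extrudes a DNA loop, and others lie where active and silent chromatin meet. Domains and loops are dissolved in mitotic chromosomes and are rebuilt as cells enter G1. Boundary strength is given here as ΔIS, the difference between the score at the boundary and the highest insulation score, on a linear scale, in the surrounding 120 kb. Since ΔIS is a local maximum minus a value inside the same window, it is at or above 0 at any position, with or without a domain border.

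Because the study removes CTCF, the sequences shown are CTCF consensus matches in the bins of members, from those nearest to a loop anchor among the matches that could be printed. Of the 719 members, 24 had a match to the CTCF core consensus, 12 letters read on both strands, in their 10 kb bin, and none of the 24 had more than 1 match. Of these, 6 that lay 30 to 130 kb from a loop anchor are printed from the mm9 assembly, 5′ to 3′ on the strand of the match, with the match in capitals and 9 bases on either side.
Rxfp4 (start in the bin, a relaxin family receptor gene), chr3:88456267-88456296, plus strand: gttgggaacCCAGCAGAGGGCgaaggaagc
Ighv1-73 (nearest start, an antibody heavy chain variable segment), chr12:117090100-117090129, minus strand: agctcacgaCCAGCAGATGGCacaatgagg
Olfr855 (nearest start, an odorant receptor gene), chr9:19396499-19396528, plus strand: atcctatatCCAGTAGAGGGCtagtaacta
Cachd1 (nearest start), chr4:100315411-100315440, plus strand: gatgccgtgCCAGTAGGGGGCttgcactgg
Fbxo11 (nearest start, a subunit of a ubiquitin ligase), chr17:88574659-88574688, minus strand: caaaggaggCCAGTAGGGGGCatcagagtc
Dscam (body over the bin, a neuronal adhesion molecule), chr16:96975183-96975212, plus strand: tccaatgttCCAGTAGATGGCcctgtaccc

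The label could be rebuilt from the deposited values. Each boundary's ΔIS was turned into z-scores across its 8 maps, and the mean profile of each deposited cluster was taken as its centre. In the z-scores of all 8 maps, 719 of 719 members (100%), and each of the 5657 other boundaries, lay nearest to the centre of their own cluster. In the 6 post-mitotic maps alone, 568 members (79.0%) did so, while 67 lay nearest to the centre of cluster 4 and 38 to that of cluster 1. The study's methods describe clustering on the post-mitotic maps alone, after z-scoring over all maps, but the deposited labels follow the profile over all 8 maps. Both prometaphase maps are therefore counted here among the values that made the label. The member closest to the edge, chr9:12610001-12620000, was 2.81 z units from its own centre and 2.82 from that of cluster 4, with a ΔIS of 0.122, 0.0545, 0.0718 and 0.0533 from prometaphase to mid-G1 without auxin and of 0.0360, 0.0287, 0.182 and 0.0289 with auxin. The boundary just outside, at chrX:81180001-81190000 in cluster 1, was 2.66 from the centre of cluster 5 and 2.65 from its own, with 0.149, 0.153, 0.0795 and 0.148 without auxin and 0.0391, 0.0823, 0.0680 and 0.0812 with auxin. The next nearest centre was that of cluster 4 for 454 members and that of cluster 1 for 260.

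The median boundary strength of the members was lower in early-G1 and mid-G1 than in prometaphase. Without auxin, the members had a median ΔIS of 0.0927 ± 0.00737 at prometaphase, 0.0615 ± 0.0103 at ana/telophase, 0.0618 ± 0.00850 at early-G1 and 0.0738 ± 0.0110 at mid-G1 (SD, n = 20 chromosomes). With auxin it was 0.0864 ± 0.0113, 0.0708 ± 0.0125, 0.0624 ± 0.0122 and 0.0582 ± 0.0127 at the same stages. The members were thus highest in prometaphase in both series of maps. Over the boundaries of clusters 1 to 4, the median started at the same level in prometaphase, 0.0939 ± 0.00855 without auxin, and reached 0.582 ± 0.0728 in mid-G1. Their mid-G1 median with auxin was 0.389 ± 0.0621. Among the members, 472 (65.6%, interval 62.1 to 69.0%) had a mid-G1 ΔIS without auxin at or below 0.0937, the median of all boundaries in prometaphase, and 540 (75.1%) did so with auxin. Over all boundaries these shares were 13.7% and 19.6%. They were 45.1% and 25.6% in cluster 4, and 5.08% and 35.6% in cluster 1. A total of 162 members (22.5%) averaged at least 0.1 over the 8 maps, against 87.1% of the other boundaries.

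**Figure D1:**
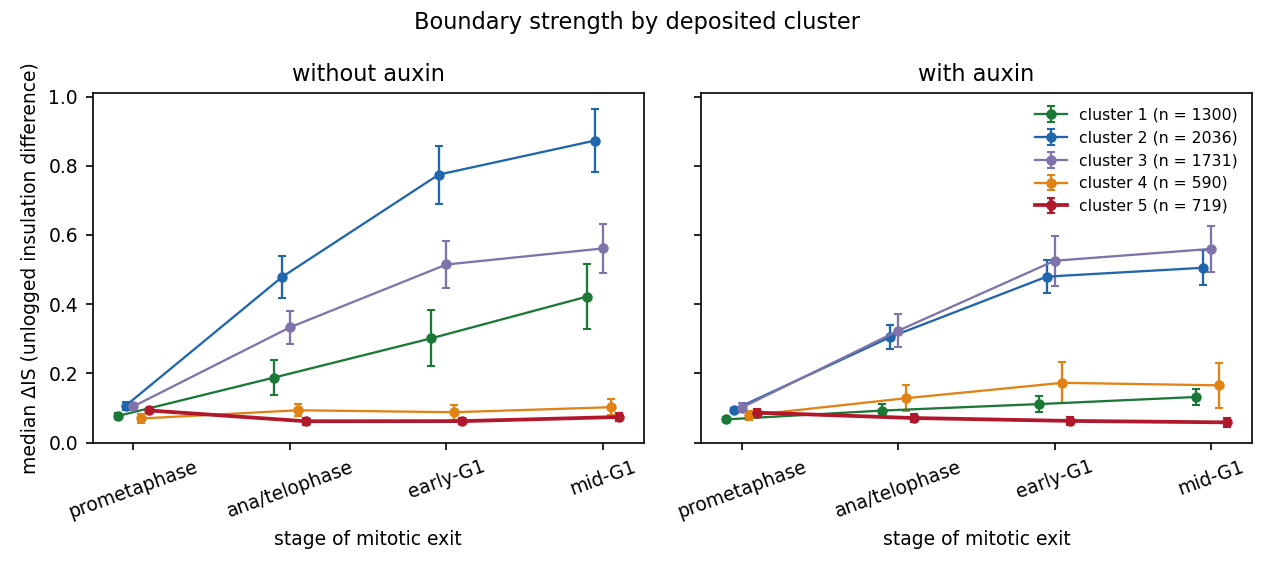
Median ΔIS (linear axis) of the 5 deposited clusters at the 4 stages, without auxin on the left and with auxin on the right; bars show the SD among the 20 chromosome medians. Cluster 5 stays between 0.0582 and 0.0927 in all 8 maps.

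Single members were more often lower than higher in mid-G1 compared with prometaphase, but falls of at least 0.02 without auxin were seen in 48.1% of them. Without auxin, 474 members (65.9%, interval 62.4 to 69.3%) had a lower ΔIS in mid-G1 than in prometaphase, and members in this state made up over 50% on 19 of 20 chromosomes. With auxin there were 496 (69.0%, interval 65.5 to 72.3%), over 50% on 20 of 20 chromosomes. In clusters 1 to 4 the corresponding shares were 3.38% and 6.51%. Cluster 4, the most similar in median level in the post-mitotic maps without auxin, had 28.1% without auxin and 12.9% with it. Cluster 1, the most similar in the post-mitotic maps with auxin, had 1.23% without auxin and 20.9% with it. Taking a 2-fold change as the limit, 158 members (22.0%) were lower in mid-G1 than in prometaphase without auxin, beside 3.17% of all boundaries, and 58 (8.07%) were higher, beside 78.0% of all boundaries. With auxin, 206 members (28.7%) were at least 2-fold lower, beside 4.64% of all boundaries, and 62 (8.62%) at least 2-fold higher, beside 70.8%. These contrasts made the label, so nothing is read from the gap between members and background.

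**Figure D2:**
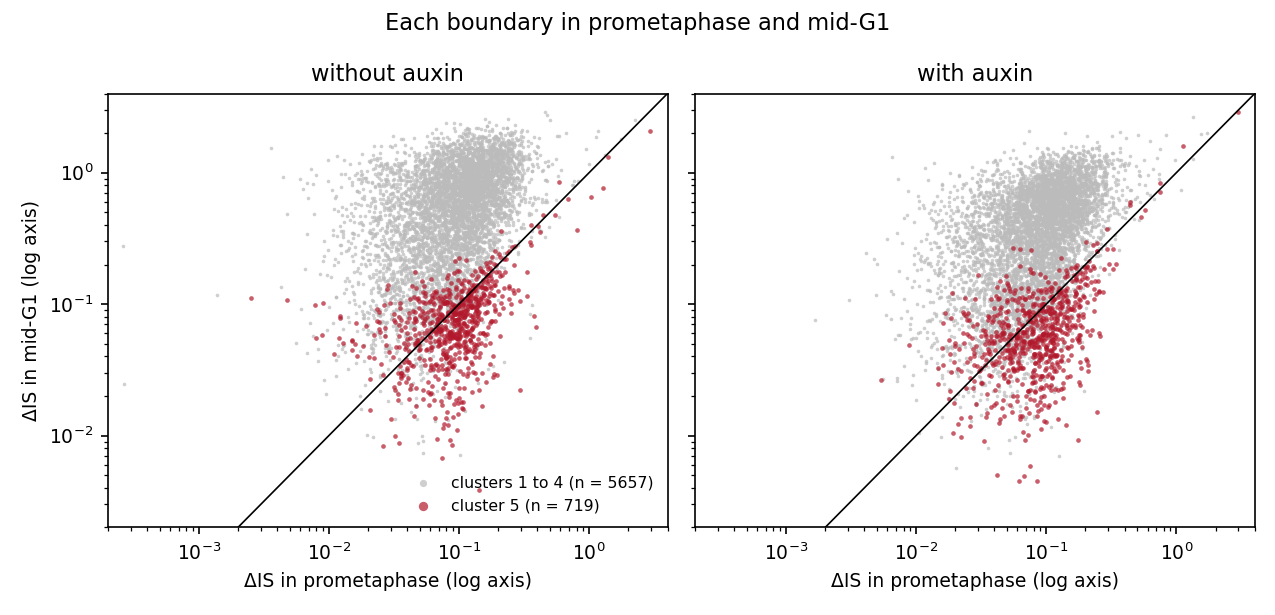
ΔIS of each boundary in prometaphase (horizontal) and in mid-G1 (vertical), both on log axes, without auxin (left) and with auxin (right); the line marks equal values, and a boundary with a value of 0 is left out. The 719 cluster 5 boundaries (red) lie about the line and mostly below it, and those of clusters 1 to 4 (grey) mostly above it.

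The median log2 ratio of +auxin over -auxin was -0.11 ± 0.26 at prometaphase, 0.22 ± 0.20 at ana/telophase, -0.02 ± 0.23 at early-G1 and -0.21 ± 0.21 at mid-G1 (SD, n = 20 chromosomes). The sign was positive on 17 of 20 chromosomes in ana/telophase and negative on 18 of 20 in mid-G1, and in prometaphase and early-G1 it was mixed, with 12 of 20 below 0. The SD over single members was between 1.07 and 1.24 at the 4 stages. The median of all boundaries shifted on the same scale by -0.10, -0.48, -0.47 and -0.59 at these stages. Relative to that shift, the members stood at -0.01, 0.70, 0.44 and 0.37, so that the mid-G1 direction turned from lower to higher. The shift was not common to all clusters. The mid-G1 median log2 ratio was -1.53 in cluster 1, -0.70 in cluster 2, -0.04 in cluster 3 and 0.69 in cluster 4. The authors had moved boundaries found without auxin to the lowest mid-G1 insulation score without auxin nearby and then added boundaries found with auxin, and the part of that step in the mid-G1 difference was not tested.

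Counts of members past 2-fold showed changes in both directions at each stage. In prometaphase, 115 members (16.0%) were at least 2-fold higher with auxin and 164 (22.8%) at least 2-fold lower, beside 13.0% and 17.7% of all boundaries. In ana/telophase, 181 (25.2%) were higher and 106 (14.7%) lower, beside 6.81% and 19.3%. In early-G1, 131 (18.2%) were higher and 116 (16.1%) lower, beside 6.41% and 20.9%. In mid-G1, 79 (11.0%) were higher and 144 (20.0%) lower, beside 4.47% and 25.5%. No member had a ΔIS of 0 in any map. The label was made from these values too, and nothing is read from the shares.

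The profiles of single members differed from one another. The highest of the 8 values fell in prometaphase without auxin for 213 members and in prometaphase with auxin for 177, together 390 members (54.2%, interval 50.6 to 57.9%). The other 6 maps were the highest for 34 to 100 members each. A member's highest value was 1.79 times the median of its 8 values, over the median member, and 1.83 times in clusters 1 to 4. Ranks of the members were shared only in part between maps: Spearman's rho over the 719 members lay between 0.13 and 0.48 for the 28 pairs of maps, with a median of 0.39. It was 0.13 between both prometaphase maps, the lowest of the 28, and 0.45 between both mid-G1 maps. Over the 5657 other boundaries it lay between 0.34 and 0.97. These coefficients are a description, since the maps were clustered and each map's points share its libraries.

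Loop anchors were rare near the members. An anchor is either end of 1 of the 16370 loops of the deposited loop list, and distances were taken between midpoints. An anchor lay within 20 kb of 11 members (1.53%, interval 0.856 to 2.72%), against 55.5% of the boundaries of clusters 1 to 4 (interval 54.2 to 56.8%), and the share was lower in cluster 5 on 20 of 20 chromosomes. It was 21.5% in cluster 4 and 72.3% in cluster 2, the cluster with the most. The median distance to the nearest anchor was 557.5 kb ± 247 (SD over chromosomes) for the members, against 20 kb ± 14.6 for clusters 1 to 4 and 177.5 kb for cluster 4. The nearest anchor was over 1 Mb away for 194 members (27.0%), against 4.49% of the other boundaries. Loop positions did not enter the cluster label, but loops and boundaries were called from the same maps.

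The kind of loop at the members also differed in count. The deposited categories are structural loops, with CTCF and cohesin at the anchors, CRE loops, which join cis-regulatory elements such as promoters and enhancers, dual-function loops, which have both, and others. An anchor of a structural loop lay within 20 kb of 1 member (0.139%), against 34.6% of clusters 1 to 4. For dual-function loops this was also 1 member, against 21.3%. For CRE loops it was 0 of 719 members, which allows a share of up to 0.417% (3 counts of the total; Wilson upper bound 0.531%), against 23.5%. For the category others it was 10 members (1.39%), against 20.9%. Fewer members than other boundaries were also crossed by a loop with both ends over 20 kb away, 193 (26.8%, interval 23.7 to 30.2%) against 61.0%, again on 20 of 20 chromosomes. The smallest such loop measured 1125 kb at the median member and 500 kb at the median of the other boundaries.

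The 11 members near an anchor held 14 loops of 70 to 900 kb, 11 of them in the category others, which holds 21.5% of all loops. Loop strength is the ratio of observed to locally expected contacts. The strongest in mid-G1, a 700 kb loop with an end 20 kb from chr4:72310001-72320000, had a strength of 1.90, 1.29, 3.37 and 5.28 from prometaphase to mid-G1 without auxin and 1.73, 0.932, 4.48 and 4.66 with auxin. This loop rose from ana/telophase to mid-G1 in both series. The only structural loop, 100 kb long at chr14:52640001-52650000, had 1.35, 2.21, 2.61 and 3.22 without auxin and 0.953, 1.05, 1.46 and 1.75 with auxin, and was lower with auxin at each stage. The third, a 430 kb loop at chr1:109500001-109510000, had 2.55, 2.32, 2.70 and 3.00 without auxin and 2.58, 2.15, 2.92 and 3.42 with auxin. Over the 14 loops the mid-G1 median was 1.87 without auxin (lowest 0.903, highest 5.28) and 1.54 with it, against 1.90 and 1.42 over all loops. Of the 14, 11 were weaker with auxin in mid-G1, a state seen in 77.1% of all loops, and 11 had no stage of detection listed with auxin, as had 71.1% of all loops.

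Members lay farther from other boundaries than boundaries of the other clusters. The nearest boundary on either side was 280 kb ± 41.6 away (median, SD over chromosomes), against 220 kb ± 11.2 for clusters 1 to 4, and it was farther in cluster 5 on 19 of 20 chromosomes. The farther of both neighbours lay at 590 kb, for the 713 members with a neighbour on each side, against 370 kb. With only clusters 1 to 4 counted as neighbours, the nearest lay at 350 kb. A neighbour within 120 kb, inside the window from which ΔIS is taken, was present at 50 members (6.95%, interval 5.31 to 9.05%) and at 7.25% of the other boundaries, with overlapping intervals.

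**Figure D3:**
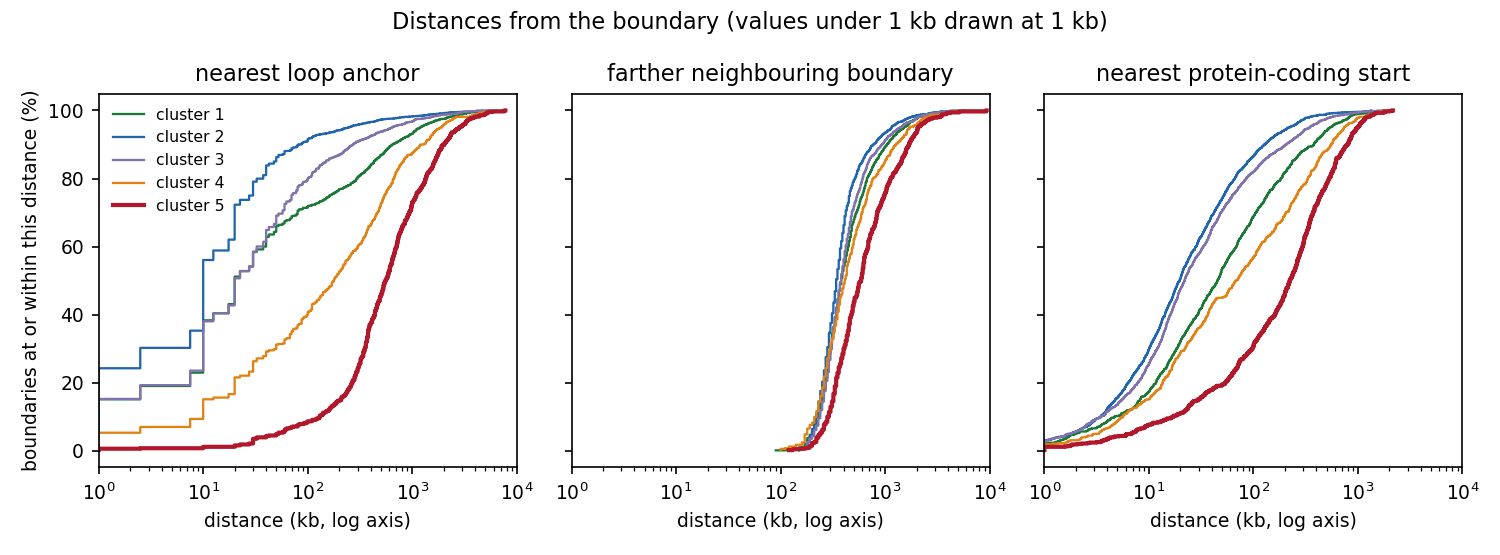
Cumulative share of boundaries (%) by distance in kb (log axis) to the nearest loop anchor, to the farther of both neighbouring boundaries and to the nearest protein-coding gene start, for the 5 clusters. Cluster 5 has the largest median of the 5 clusters in each panel, at 557.5, 590 and 223 kb.

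The nearest neighbour of a member was more often in cluster 5 than that of another boundary. The nearest neighbour of 260 members (36.2%, interval 32.7 to 39.7%) was itself in cluster 5, against 6.47% for boundaries of clusters 1 to 4, with the share higher on 20 of 20 chromosomes. It was 9.82% over all boundaries, 17.8% in cluster 4 and 3.34% in cluster 2. A same-cluster nearest neighbour was found for 21.8% of cluster 1, 42.7% of cluster 2, 36.0% of cluster 3 and 12.5% of cluster 4. These clusters differ in size. The median distance from a member to the nearest other member was 650 kb. In order along the chromosomes, the members formed 489 runs, of which 332 were a single member, and 387 members (53.8%) stood in runs of 2 or more. A run holds members that follow each other at any distance, and runs of other clusters were not counted. The 4 longest runs, chosen after their values were seen, had 7, 6, 5 and 5 members and no loop anchor inside them.

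The longest run spanned 4830 kb, chr6:75720001-80550000, over 12 protein-coding genes, among them Ctnna2, the neuronal alpha-catenin, Lrrtm1 and Lrrtm4, which encode synaptic adhesion proteins, and a group of Reg genes for secreted lectins. Most of this span held no boundary of any cluster, since none lay between the members at chr6:76480001-76490000 and chr6:79960001-79970000. The 7 members of the run had a median ΔIS of 0.0574, 0.0421, 0.0629 and 0.0482 from prometaphase to mid-G1 without auxin. They ranged from 0.0133 to 0.0533 in mid-G1 with auxin. In mid-G1 without auxin they ranged from 0.0207 to 0.0665, so each lay below the median of the cluster, 0.0738. The second run, chr11:36630001-40030000, held 6 members over 1 gene, Odz2, a teneurin of neuronal membranes. The third, chr1:100040001-102060000, lay over Slco6d1 and Cntnap5b.

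Members were found on each of the 20 chromosomes, from 5.14% of the boundaries of chromosome 19 (9 of 175, interval 2.73 to 9.48%) and 5.95% of chromosome 11 to 14.9% of chromosome 4 and 15.3% of chromosome 1 (72 of 472, interval 12.3 to 18.8%). The intervals of chromosomes 1 and 19 did not overlap. Chromosomes 11 and 19 carried 13.6 and 11.8 protein-coding genes per Mb and chromosome 1 carried 6.28, while chromosome 7, with 13.6 genes per Mb, had 13.1% of its boundaries in the cluster.

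Genes were sparse around the members. A protein-coding gene start lay in the 10 kb bin of 30 members (4.17%, interval 2.94 to 5.89%), against 13.0% of clusters 1 to 4 (interval 12.1 to 13.9%), 8.81% of cluster 4 and 7.83% of the 255139 bins of the genome that hold no undetermined base. The share was lower than in clusters 1 to 4 on 20 of 20 chromosomes. The body of a protein-coding gene covered at least part of the bin at 209 members (29.1%) and at 54.4% of the other boundaries, lower on 19 of 20 chromosomes. The median distance to the nearest start was 223 kb ± 58.4 (SD over chromosomes) against 26.1 kb ± 9.53, and the median number of starts within 500 kb was 2 against 9. No start lay within 500 kb of 156 members (21.7%), against 3.75% of the other boundaries.

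Base composition differed too. The bins of the members had a median of 39.0% ± 0.681 G or C (SD over chromosomes), against 43.1% ± 1.29 in clusters 1 to 4, 40.5% in cluster 4 and 41.2% in all bins. The median was lower on 20 of 20 chromosomes. CpG pairs, the sites of DNA methylation, numbered 53 per bin against 92.

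CTCF motifs were fewer in the bins of the members than in those of clusters 1 to 4, but the share was near that of the genome. A match to the CTCF core consensus was present in 24 (3.34%, interval 2.25 to 4.92%), against 9.92% of clusters 1 to 4 (interval 9.17 to 10.7%) and 4.71% of all bins, which lies inside the interval of the members. The share was lower than in clusters 1 to 4 on 19 of 20 chromosomes. Cluster 4 had 4.58%, with an interval that overlapped that of cluster 5, and cluster 2 had 12.9%. The 24 members with a match had a median log2 ratio of +auxin over -auxin of -0.36 in mid-G1 (SD over members 0.943), and the 695 without a match had -0.21 (SD 1.08). Both values come from the maps that made the label, and their difference was not tested. Among the 6 members whose sequences are given above, ΔIS in mid-G1 without and with auxin was 0.360 and 0.290 at Rxfp4, 0.758 and 0.718 at Ighv1-73, 0.128 and 0.283 at Olfr855, 0.149 and 0.0572 at Cachd1, 0.213 and 0.120 at Fbxo11, and 0.0172 and 0.0389 at Dscam. It was thus lower with auxin at 4 of these and higher at the Olfr855 and Dscam boundaries. A match is a stretch of letters and not a measured binding site, and GC content, which was lower in the members, was not matched in this comparison.

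**Figure D4:**
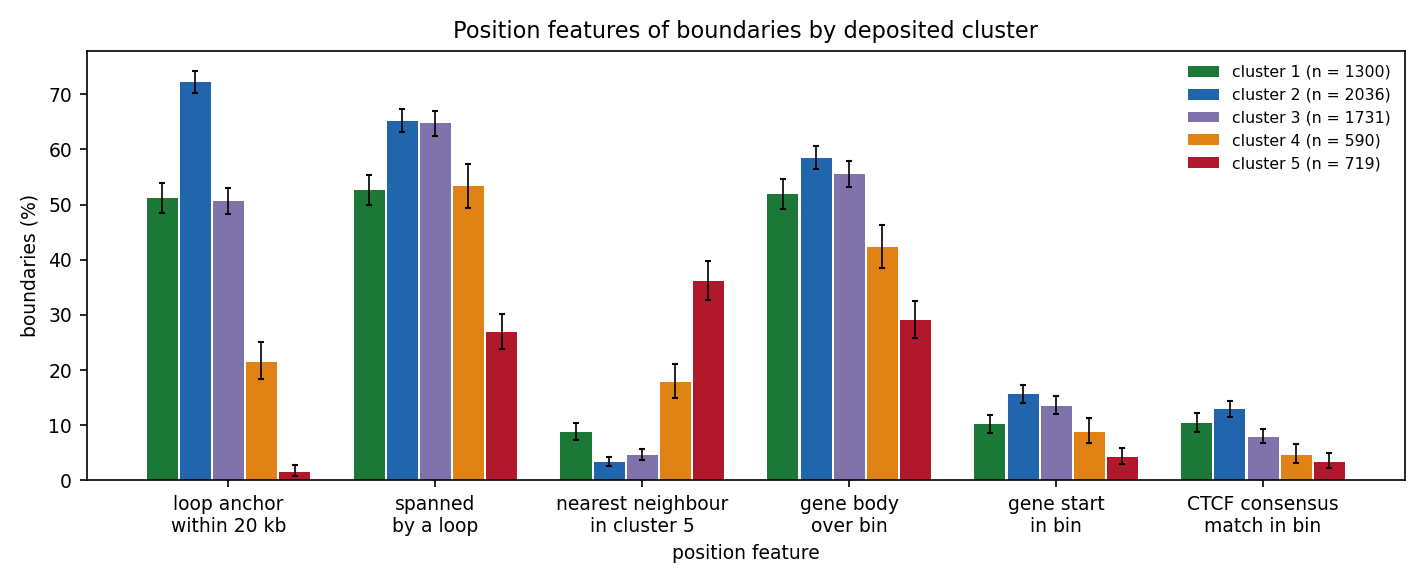
Share of boundaries (%, linear axis from 0) in each cluster with a loop anchor within 20 kb, a loop across them, a nearest neighbour in cluster 5, a gene body over the bin, a gene start in the bin and a CTCF consensus match in the bin; bars are 95% Wilson intervals. Cluster 5 has the lowest share of each apart from the nearest neighbour in cluster 5, where it has the highest.

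Gene families were counted within 500 kb of the boundaries, by the start of the gene symbol. Members had fewer gene starts of any kind in this window, as given above, and the counts were not adjusted for it. Zfp genes, zinc finger proteins, lay near 30 members (4.17%) against 10.2% of clusters 1 to 4, Slc transporters near 38 (5.29%) against 16.5%, Tmem membrane proteins near 19 (2.64%) against 10.8%, and Kcn potassium channels near 16 (2.23%) against 4.26%. Among receptor families that lie in large tandem arrays, Olfr odorant receptors lay near 22 members (3.06%) against 4.00%, Vmn1r vomeronasal receptors near 2 (0.278%) against 1.01%, and Vmn2r vomeronasal receptors near 11 (1.53%) against 0.937%. Cdh cadherins, cell adhesion molecules, lay near 11 members (1.53%) against 1.06%. Ugt genes, glucuronosyltransferases, lay near 3 (0.417%) against 0.177%, Pcdh protocadherins near 3 against 0.336%, and Gabr GABA receptor subunits near 2 (0.278%) against 0.177%. Cyp cytochromes lay near 7 (0.974%) against 2.23% and Serpin genes near 3 (0.417%) against 0.919%. The intervals of cluster 5 and of clusters 1 to 4 were apart for Zfp, Slc, Tmem and Kcn, and they overlapped for the other families with a count above 0 named here. In cluster 4, Kcn genes lay near 3.56% (interval 2.34 to 5.38%), which overlapped cluster 5 (1.37 to 3.58%). For Zfp, Slc and Tmem the intervals of clusters 4 and 5 were apart. Histone, Hox, Defb and Krt genes lay near 0 of 719 members, which allows a share of up to 0.417%. Over all boundaries the shares were 0.361%, 0.267%, 0.220% and 0.486%, and in clusters 1 to 4 they were 0.407%, 0.301%, 0.247% and 0.548%. A difference was thus not detectable for the first 3 families by this limit or by the Wilson upper bound of 0.531%. The Krt share of clusters 1 to 4 lay above both, but its interval, 0.386 to 0.777%, overlapped that of cluster 5. Of 36 erythroid genes, such as Gata2, Klf1 and the globins, 34 were in the annotation, and none had its start within 50 kb of a member. Such a start was near 16 boundaries of clusters 1 to 4 (0.283%), a share under the limit that a count of 0 among the members allows. The closest was 396 kb from a member. The median erythroid gene lay 3915 kb from the nearest member and 2150 kb from the nearest of the 590 boundaries of cluster 4, sets of similar but unequal size.

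A few members had a ΔIS far above the median of the cluster in all maps. They were named by rank in mid-G1 and in prometaphase without auxin. At chr12:105220001-105230000, a bin with the start of Serpina11 in an array of serine protease inhibitor genes, ΔIS was 2.96, 1.67, 2.27 and 2.08 from prometaphase to mid-G1 without auxin, and 2.96, 2.05, 2.90 and 2.87 with auxin. It was the highest member in each map. At chr7:19110001-19120000, with the start of Psg25 in an array of pregnancy-specific glycoprotein genes, ΔIS was 1.403, 1.24, 1.19 and 1.31 without auxin and 1.132, 1.25, 1.05 and 1.60 with auxin. At chr9:114060001-114070000, 98.5 kb from the nearest start, that of Susd5, it was 0.585, 0.353, 0.398 and 0.853 without auxin and 0.436, 0.627, 0.305 and 0.566 with auxin. In prometaphase without auxin, clusters 1 to 4 had a median of 0.0939 and a highest value of 2.25. The 3 members were named by rank, so nothing is read from their height above that median. With auxin, mid-G1 ΔIS was higher at the Serpina11 and Psg25 boundaries and lower at the Susd5 boundary.

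Near the antibody heavy chain locus, a pair of members 160 kb apart was strongest in prometaphase without auxin. At chr12:117090001-117100000, 65.9 kb from the start of Ighv1-73, ΔIS was 1.28, 0.667, 1.09 and 0.758 without auxin and 0.749, 0.989, 0.872 and 0.718 with auxin. At chr12:117250001-117260000, 25.6 kb from the start of Zfp386, it was 1.03, 0.566, 0.824 and 0.649 without auxin and 0.439, 0.476, 0.666 and 0.595 with auxin. In both, the prometaphase value was lower with auxin than without it, with log2 ratios of +auxin over -auxin of -0.77 and -1.23. Both had been chosen for a high prometaphase value without auxin, which favours a lower value in the other map, so nothing is read from this difference.

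**Figure D5:**
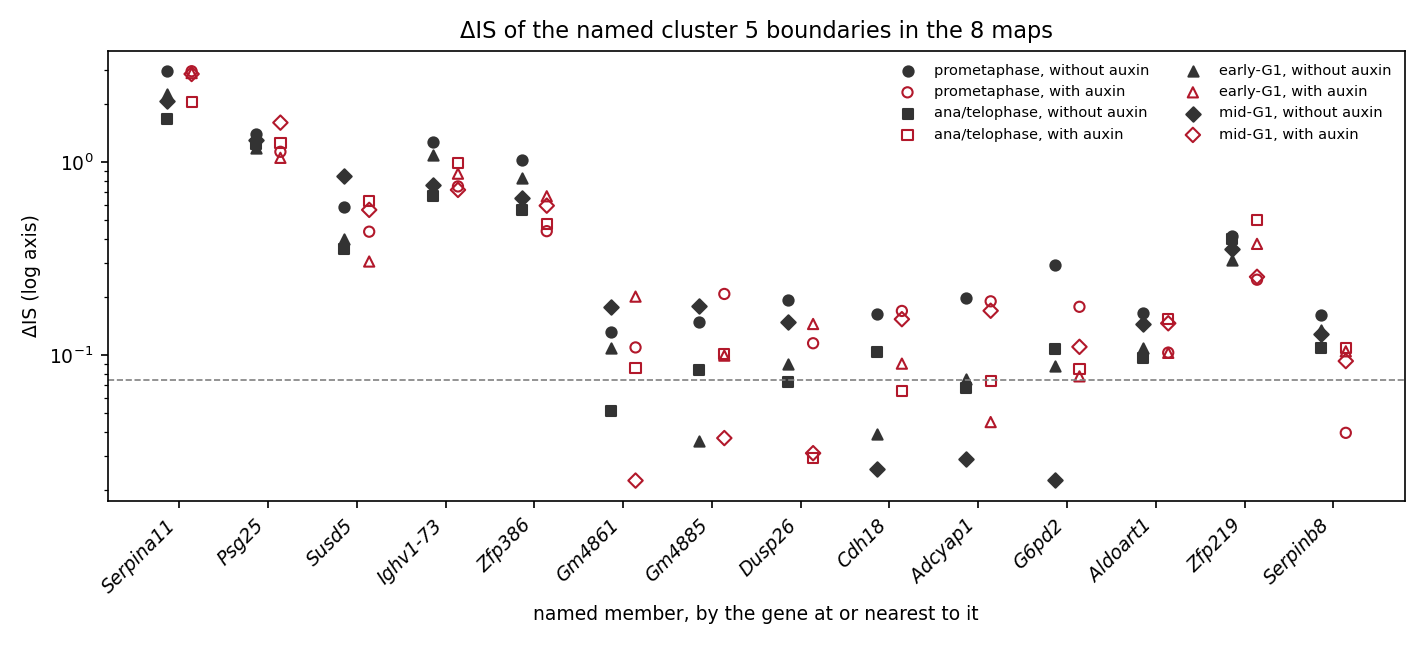
ΔIS (log axis) of the 14 named cluster 5 boundaries in the 8 maps, filled symbols without auxin and open red symbols with auxin, named by the gene at or nearest to the bin; the dashed line is the median of the cluster in mid-G1 without auxin, 0.0738. The Serpina11 and Psg25 boundaries lie above 1 in each map, while the members named for the largest changes lie between 0.0223 and 0.292.

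The largest changes with auxin in mid-G1, among the 162 members with a mean of at least 0.1, were falls and rises of low values. At chr3:137110001-137120000, 101 kb from the predicted gene Gm4861, ΔIS was 0.177 in mid-G1 without auxin and 0.0223 with it, a log2 ratio of -2.99, while in early-G1 it was 0.109 and 0.201. The values at chr7:79930001-79940000, near the predicted gene Gm4885, were 0.180 and 0.0371 in mid-G1, a log2 ratio of -2.28, and 0.0357 and 0.0992 in early-G1. At chr8:31380001-31390000, 815 kb from Dusp26, a phosphatase gene, they were 0.149 and 0.0309 in mid-G1, a log2 ratio of -2.26, and 0.0898 and 0.145 in early-G1. In each of these 3 falls, the early-G1 difference ran the other way. The members were chosen for an extreme mid-G1 ratio, which favours a smaller difference at another stage, so nothing is read from these directions.

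The 3 largest rises lay in the body of Cdh18, a neuronal cadherin, at chr15:23070001-23080000, and near Adcyap1, the gene of a neuropeptide, and G6pd2, a retrogene of glucose-6-phosphate dehydrogenase. At the Cdh18 boundary, mid-G1 ΔIS was 0.0257 without auxin and 0.153 with it, 5.98-fold higher, and early-G1 values were 0.0389 and 0.0902. At chr17:93850001-93860000, 256.2 kb from Adcyap1, they were 0.0287 and 0.170 in mid-G1, 5.90-fold higher, and 0.0751 and 0.0449 in early-G1. At chr5:62530001-62540000, 335 kb from G6pd2, they were 0.0224 and 0.110 in mid-G1, 4.93-fold higher, and 0.0878 and 0.0775 in early-G1. The early-G1 difference had the same direction at the Cdh18 boundary and the opposite at the others. These members were also chosen by their mid-G1 ratio, so nothing is read from these directions. Loop anchors were 2837.5, 4940 and 397.5 kb away from these 3 boundaries.

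The 11 members with a loop anchor within 20 kb had a median ΔIS of 0.294 in mid-G1 without auxin and 0.254 with it, against 0.0731 and 0.0580 for the other 708 members. Per member, however, the median log2 ratio of +auxin over -auxin was 0.18 for the 11 and -0.22 for the other 708, a difference that was not tested. At chr4:72310001-72320000, 199 kb from the retrogene Aldoart1, ΔIS was 0.165, 0.0961, 0.108 and 0.145 without auxin and 0.103, 0.154, 0.103 and 0.146 with auxin. At chr1:109500001-109510000, in the body of the protease inhibitor gene Serpinb8, it was 0.161, 0.109, 0.135 and 0.129 without auxin and 0.0395, 0.109, 0.104 and 0.0930 with auxin. At chr14:52640001-52650000, with the start of the zinc finger gene Zfp219, it was 0.415, 0.398, 0.312 and 0.353 without auxin and 0.246, 0.503, 0.377 and 0.254 with auxin. The Zfp219 boundary was lower with auxin in mid-G1, as was its structural loop, though in ana/telophase and early-G1 the boundary was higher with auxin and the loop lower. The Susd5 boundary, given above, was the fourth named by loop strength. The 11 members also included the Serpina11 boundary and the one near Zfp386, with an anchor 20 and 10 kb away. The Susd5, Zfp219, Serpina11 and Zfp386 boundaries were all among the 10 members with the highest mean ΔIS.

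Repeated sequence stood out around the strongest members. The share of sampled 31-base words found more than once in the mm9 chromosomes was taken over 250 kb around each boundary. It had a median of 46.0% at the 10 members with the highest mean ΔIS (range 9.60 to 62.4%), 16.4% at the other 709 members and 10.6% in clusters 1 to 4. Gene starts were also dense around these 10 members, with a median of 22.5 within 500 kb against 2 at the other 709, and the 10 strongest boundaries of clusters 1 to 4 had 25. The 10 strongest boundaries of clusters 1 to 4 had 27.1%. Over the whole cluster the median was 16.5% ± 3.09 (SD over chromosomes), higher than in clusters 1 to 4 on 20 of 20 chromosomes, and it was 13.5% in cluster 4. In the 10 kb bin itself the median was 8.7% in cluster 5, 8.8% in cluster 4 and 7.4% in clusters 1 to 4. At least 50% of the words were repeated around 13 members (1.81%, interval 1.06 to 3.07%) and around 0.442% of the other boundaries, with 1.36% in cluster 4 (interval 0.689 to 2.65%), which overlapped cluster 5. These 13 had a median prometaphase ΔIS without auxin of 0.333, against 0.0923 for the other 706. The Psg25, Susd5 and Ighv1-73 boundaries, at 52.5%, 52.7% and 54.3%, were among the 13, while the Serpina11 boundary had 28.2%. The part of repeated sequence in the mapped contacts was not tested.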

How the data were processed

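In situ Hi-C maps of 18 samples in 8 conditions were used; 4 triptolide samples were not. The authors processed the reads on mm9 (Bowtie2 per the labels' processing notes), merged the replicates of each condition, balanced 10 kb maps, called domains, moved boundaries found without auxin to the lowest nearby mid-G1 insulation score, added boundaries found with auxin, and clustered ΔIS by k-means; their methods left cluster 5 out as mostly spurious. Deposited ΔIS values are a signal of 0 or more, and deposited loop strengths a ratio of contacts observed over those expected locally. Deposited cluster labels, positions, loop categories and stages of loop detection are used as given.

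The members and lists were chosen with earlier results of these data known. Distances, shares, z-score profiles and log2 ratios without a pseudocount were computed in Python 3.11.15 with pandas, NumPy and SciPy, with Wilson intervals, and each function was tested on simulated data. Loop anchors and boundaries were compared by midpoint. The listed coordinate was taken as the start of the boundary's bin, a reading that the labels do not state. In clusters 1 to 4, a gene start lay in 13.0% of these bins and in 14.4% of the bins that end there. For CTCF matches these shares were 9.92% and 9.78%. Chromosome lengths of NCBIM37 (mm9) hold all coordinates. Genes are the protein-coding genes of GENCODE vM1. Repeated sequence is the share of 31-base words, sampled every 10 bases, found more than once. CTCF matches on chromosome 18 were counted but are not printed. Boundaries were named by rank of ΔIS in mid-G1 and prometaphase (4 each), by largest mid-G1 fall and rise (3 each, mean ΔIS at least 0.1), by loop strength (4) and by erythroid genes within 50 kb.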

Additional observations from a re-analysis of the deposited data

How the results depend on the processing

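The 27 alternatives kept 13 values within their spread, moved 13 and reversed 1. Centring each map on all boundaries, whose shift differed between clusters, turned the mid-G1 log2 change from -0.21 to 0.37. With a pseudocount of 0.05, the subset with higher ΔIS, the ratio of means, or without chromosome 3 or X it stayed between -0.21 and -0.08. The share of members lower in mid-G1 than in prometaphase was 48.1% for falls of at least 0.02, 71.9% with early-G1 and 59.3% at a mean ΔIS of at least 0.1. The mean mid-G1 ΔIS without auxin was 0.0917. Anchors within 40 kb were present at 4.31%. The boundary distance was 350 kb with clusters 1 to 4 as neighbours and 590 kb for the farther side. A CTCF match was present in 7.51% of 30 kb windows and, with the 14-letter consensus, in 0.974% of bins; a gene start was present in 9.46% of 30 kb windows and, with all annotated genes, in 6.95% of bins. In all 13 settings for anchors, matches and starts, cluster 5 had a lower share than clusters 1 to 4. Nearness to the own centre was 100% with 8 maps and 82.1% on unscaled log2 values. The causes were not tested, apart from wider windows and longer motifs, which change the counts by construction. No paired analysis was possible because the boundary and loop tables used here hold values of merged replicates, and no replicate was left out for the same reason. Maps of single replicates were not analysed here.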
